A study of Homo sapiens with 18 samples.

Results

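The arrays described here compare dye-retaining with dye-diluted tumor cells of the human osteosarcoma line 143B. They are 8 of the 18 arrays of the series, chosen by the cell line and the dye status in the sample titles. Of these, 3 hold dye-retaining cells (High) and 5 hold dye-diluted cells (Low), and all 14418 genes that passed a filter on dim signals were compared between them. 143B is an established line derived from HOS osteosarcoma cells by transformation with a Ki-ras oncogene. The cells of both groups carried the green fluorescent protein ZsGreen and the membrane dye PKH26, grew as orthotopic tumors in bone and received no treatment that the labels name. Cells from the soft tissue part of each tumor were sorted by flow cytometry, with 150000 High and 700000 Low cells taken per tumor. The labels call High cells tumor-initiating cells and Low cells bulk tumor cells, and the arrays themselves hold no test of tumor initiation.

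The Low arrays come from tumors 143B-1251, 143B-1252, 143B-1253, 143B-1254 and 143B-1255, with 1 array each. The High arrays come from tumor 143B-1253 and from the pools 51&52 and 54&55, which were combined because too little RNA was obtained. The first was read here as tumor 143B-1251 plus tumor 143B-1252, the other as tumor 143B-1254 plus tumor 143B-1255. A single line was studied, 2 of the 3 High arrays are pools, and the labels state neither the strain nor the age of the host. MNNG/HOS (MNNG below), a chemically transformed HOS derivative, was sorted in the same way onto 4 High and 4 Low arrays, which served to test whether a difference depended on the line. All 18 arrays, among them the other two of the series from MNNG lung metastases, also entered the choice of probe sets and the filter.

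PKH26 inserts into the cell membrane and is shared between the daughters at each division, so a cell that keeps the dye has divided less often since loading. Dye-retaining cells of a tumor are studied as a slowly dividing fraction that may survive treatment and seed new tumors. The question of the comparison was which transcripts set that fraction apart from the bulk of the same tumors.

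Signals are log2 values per probe set, and each gene is represented by the probe set with its highest mean over the 18 arrays. Across genes, the 8 arrays correlated pairwise with r between 0.982 and 0.994. The mesenchymal and bone lineage genes VIM (14.5 in High and 14.5 in Low), SPARC (10.9 and 10.8), COL1A1 (10.6 and 10.5) and RUNX2 (8.66 and 8.83) were bright in both groups, while the osteoblast markers SP7, ALPL and IBSP stayed under the filter value of 5.36 on all 8 arrays. Hybridization controls, foreign transcripts that the standard protocol adds to each sample, read 11.8 to 12.1 in High and 10.2 to 11.5 in Low. Each High array lay above each Low array, with a difference of 1.003 (two-sided exact permutation test, p = 0.0357, the smallest that 3 against 5 arrays allow, and 0.143 adjusted over 4 array measures). The signal of the actin control's 3' end over its 5' end, a measure of RNA quality, was 1.64 ± 0.40 (SD, n = 3) in High and 2.12 ± 0.43 (SD, n = 5) in Low, and the groups overlapped (exact p = 0.179). The same measure for GAPDH was 0.76 ± 0.25 in High and 0.65 ± 0.16 in Low (exact p = 0.464). The interquartile range of each array's signals was 3.29 ± 0.04 in High and 3.39 ± 0.08 in Low, with overlap (exact p = 0.0714, and 0.143 adjusted).

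**Figure D1:**
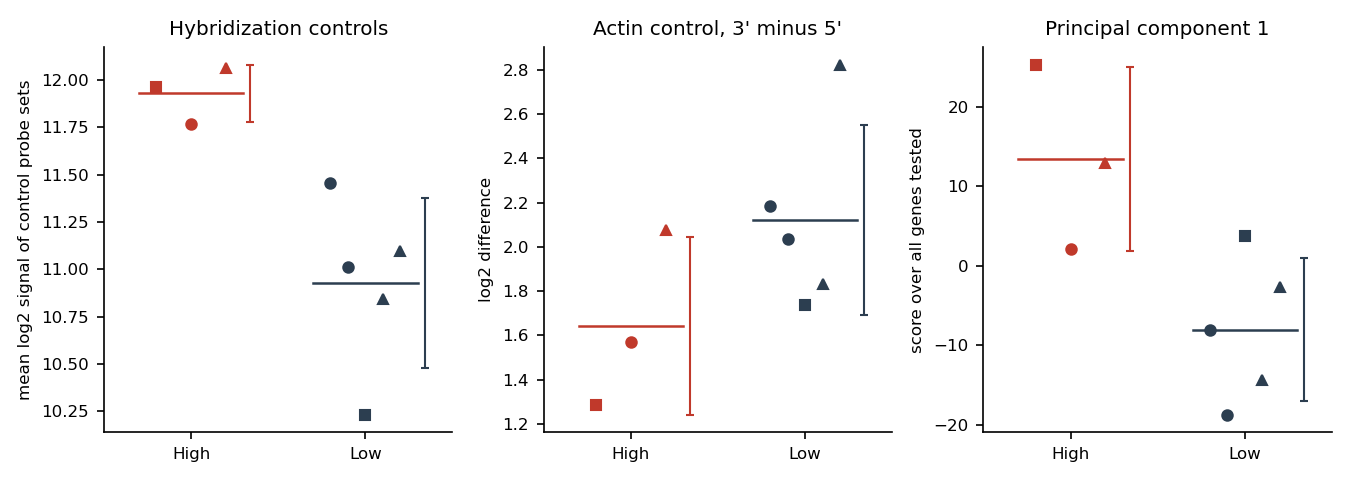
Hybridization control signal (mean log2 signal), the 3' minus 5' log2 signal of the actin control and the score on principal component 1 over 14418 genes, for each of the 3 High and 5 Low arrays of 143B. Lines are means and bars ±1 SD. Circles mark tumors 143B-1251 and 143B-1252 and their pool, squares tumor 143B-1253, triangles tumors 143B-1254 and 143B-1255 and their pool. The control signal separates the groups, and on component 1 (31.8% of the variance) the pool 51&52, at 2.1, lies below the Low array of tumor 143B-1253, at 3.7.

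Few transcripts separated the dye-retaining cells firmly. In a limma fit that did not pair arrays by tumor, 9 of 14418 genes were called at an adjusted p under 0.05 (0.0624%). Of these, 4 rose (0.0277%) and 5 fell (0.0347%) in High. CXCL14, CDC42, MNX1 and PTPRA rose, and PTGR2, PM20D2, EVI5, ALG13 and MIGA1 fell. At an unadjusted p under 0.05 there were 2532 genes (17.6%), with 1120 higher (7.77%) and 1412 lower (9.79%). The median difference over all genes was -0.02. A limma fit with tumor blocks, described below, called 63 genes (0.437%), among them the 9 above.

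CXCL14, a chemokine made by epithelial cells and fibroblasts, had the largest change. Its log2 signal was 10.49, 9.24 and 9.27 in High (tumor 143B-1253, pool 51&52 and pool 54&55, the order used throughout) and 7.41, 6.46, 7.53, 6.22 and 7.43 in Low (tumors 143B-1251 to 143B-1255). The lowest High array lay well above the highest Low array, and the High cells of tumor 143B-1253 were the brightest. The difference was 2.65 ± 0.36 (SE of the limma fit), or 6.30-fold, with an adjusted p of 0.0382. The gene has a single tested probe set, and its other two stayed under the filter. CDC42, a small GTPase of cell polarity and migration, read 10.57, 9.97 and 10.32 in High and 9.53, 9.20, 9.31, 9.14 and 9.03 in Low. It rose 2.07-fold (1.05 ± 0.15, adjusted p = 0.0427) with no overlap. Its 5 tested probe sets did not move together, with differences from -0.40 to 1.05, and the remaining 4 lay at or below 0.01. The rise was measured by 1 probe set alone, and 1 of the others, at -0.15, was brighter in both 143B groups (10.3 in High and 10.5 in Low).

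MNX1, a homeobox transcription factor of motor neurons and pancreas, read 7.90, 7.55 and 7.53 in High against 6.84 to 7.02 in Low. Every High array exceeded every Low array, and the gene rose 1.64-fold (0.72 ± 0.11, adjusted p = 0.0427). PTPRA, a receptor tyrosine phosphatase that activates SRC family kinases, read 7.66, 7.62 and 7.79 in High against 6.83 to 7.22 in Low, a rise of 1.62-fold (0.70 ± 0.10, adjusted p = 0.0427). Of 3 tested PTPRA probe sets the remaining ones lay at -0.02 and -0.05.

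Among the genes that fell, PTGR2, which reduces 15-keto-prostaglandins and so ends their signal, read 4.91, 4.77 and 4.55 in High and 5.64, 5.68, 6.02, 5.69 and 5.68 in Low. All High arrays lay under the filter value, so the direction is firmer than the size of the 1.996-fold decrease (-0.997 ± 0.12, adjusted p = 0.0199). PM20D2, a peptidase that clears unusual dipeptides, read 9.04, 9.25 and 9.13 against 9.99, 9.85, 9.83, 9.95 and 10.01. This was a 1.73-fold decrease between tight groups (-0.79 ± 0.09, adjusted p = 0.0199), and its other tested probe set also lay at -0.79. EVI5, a GTPase-activating protein with roles at the centrosome and in cytokinesis, read 8.22, 8.50 and 8.24 against 9.15, 9.18, 9.12, 9.12 and 8.99 (-0.79 ± 0.10, adjusted p = 0.0199). ALG13, which supplies N-acetylglucosamine early in N-glycan assembly, read 8.43 to 8.84 in High and 9.24 to 9.45 in Low (-0.74 ± 0.11, adjusted p = 0.0427), and its 5 tested probe sets were all below 0. MIGA1, a protein of mitochondrial fusion, read 7.02 to 7.32 in High and 7.78 to 7.94 in Low (-0.67 ± 0.10, adjusted p = 0.0427). That MIGA1 probe set is of type _x_at, and the other one tested lay at -0.37. For none of the 5 genes that fell did a High array reach the lowest Low array.

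**Figure D2:**
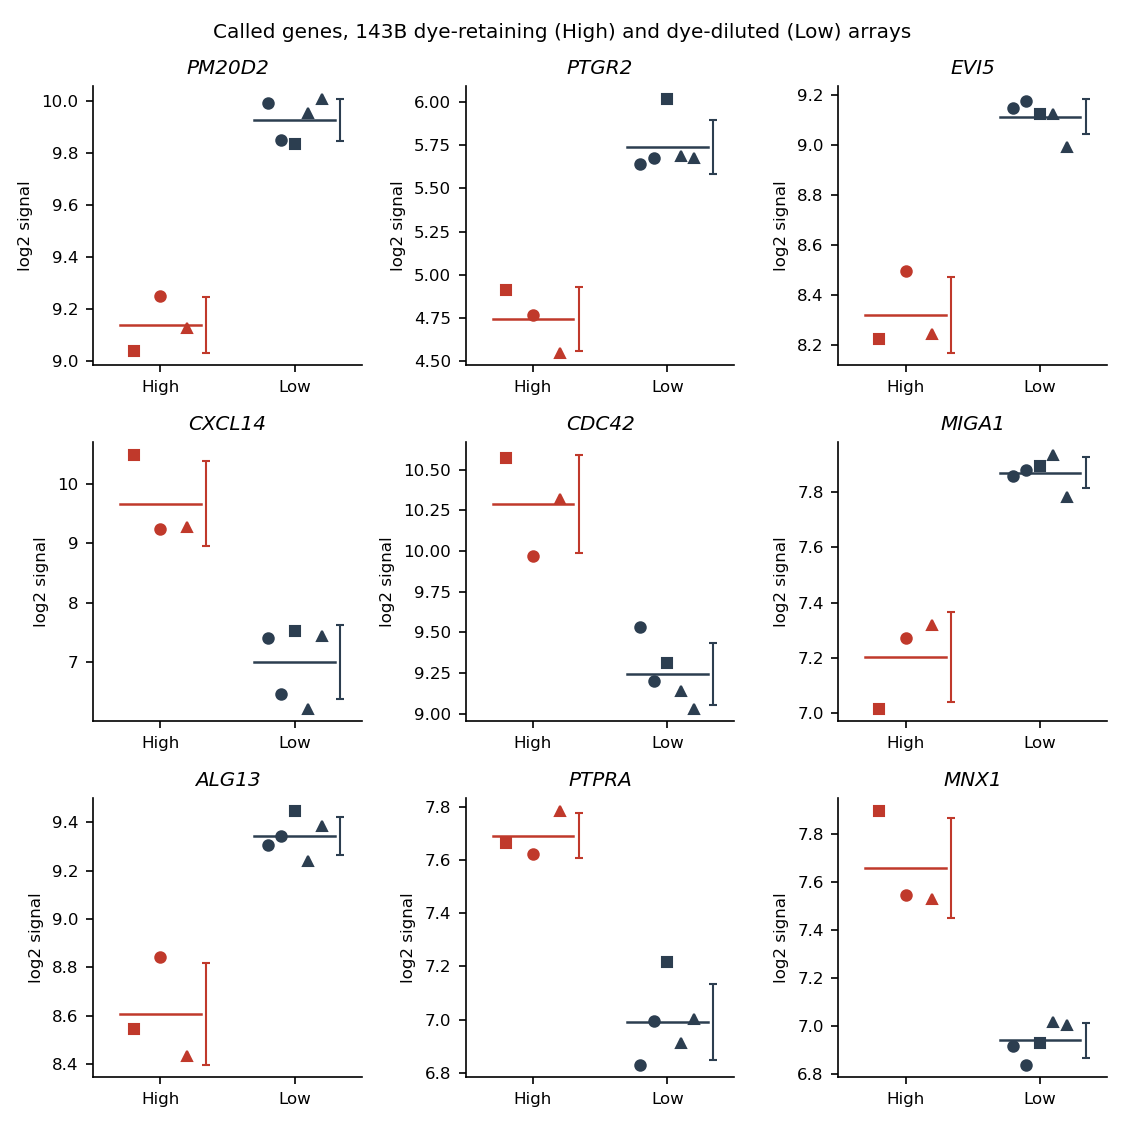
Log2 signal of the 9 called genes on each High and Low array of 143B, with a vertical scale of its own in every panel. Lines are means, bars ±1 SD, and symbols mark tumors as circles (143B-1251, 143B-1252 and their pool), squares (143B-1253) and triangles (143B-1254, 143B-1255 and their pool). No panel shows overlap between the groups, and CXCL14 spans the widest range, from 6.22 to 10.49.

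The stretch of 250 bases before the RefSeq start site was searched for 4 short motifs on both strands in all 9 called genes, and those with a match to the AP-1 motif TGACTCA or the cyclic AMP response element TGACGTCA are printed here. They come from the RefSeq promoter table of assembly GRCh38.p14, run 5' to 3' on the gene's own strand and carry matches in capitals. Capitals in EVI5 also mark a TATAAA match, and the table's first of 2 EVI5 promoters was used.
CXCL14 (chr5:135578992-135579241, minus strand): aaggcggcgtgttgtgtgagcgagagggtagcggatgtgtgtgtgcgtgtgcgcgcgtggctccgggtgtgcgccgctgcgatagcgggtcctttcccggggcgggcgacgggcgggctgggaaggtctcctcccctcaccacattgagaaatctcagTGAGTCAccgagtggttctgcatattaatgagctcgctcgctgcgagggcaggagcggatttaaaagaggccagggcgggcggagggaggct
CDC42 (chr1:22052459-22052708, plus strand): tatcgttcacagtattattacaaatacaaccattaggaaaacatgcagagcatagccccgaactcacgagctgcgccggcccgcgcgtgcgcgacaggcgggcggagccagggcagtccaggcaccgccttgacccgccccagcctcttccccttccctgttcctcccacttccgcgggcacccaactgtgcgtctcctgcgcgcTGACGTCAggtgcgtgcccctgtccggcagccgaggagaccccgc
EVI5 (chr1:92792411-92792660, minus strand): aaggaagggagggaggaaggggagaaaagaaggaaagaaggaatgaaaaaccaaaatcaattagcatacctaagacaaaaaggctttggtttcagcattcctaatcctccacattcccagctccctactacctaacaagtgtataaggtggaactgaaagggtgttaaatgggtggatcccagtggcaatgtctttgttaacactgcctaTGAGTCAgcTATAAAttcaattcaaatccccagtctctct

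CXCL14, which rose, and EVI5, which fell, each hold 1 AP-1 match, read from the opposite strand as TGAGTCA, and CDC42 holds 1 cyclic AMP response element. Over 35116 promoters of the same length, 4.20% hold the AP-1 motif, 1.65% the cyclic AMP response element and 10.7% a TATAAA. The matches are letters in a window, and binding was not measured.

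The count of calls was small enough to depend on single arrays. With limma no gene was called without Low 143B-1251, Low 143B-1254, High 143B-1253 or High 54&55 (unadjusted p under 0.05 for 2226, 1952, 1711 and 1864 genes), 3 were called without Low 143B-1252, 5 without Low 143B-1253 or Low 143B-1255, and 35 without the pool 51&52. With a block that joined each High array with the Low arrays of its own tumor or pair of tumors (3 blocks over 5 tumors), 63 genes were called (0.437%), 16 higher and 47 lower, among them all 9. When all 26556 probe sets past the filter were tested one by one, an alternative added after seeing the data, limma called none (4491 at an unadjusted p under 0.05), and the lowest adjusted p was 0.0596. Centring each array on its median gave 61 calls, 12 of them higher. With the hybridization control signal as a covariate none was called (1188 at an unadjusted p under 0.05). The difference was then 2.67 ± 0.66 for CXCL14, 0.88 ± 0.27 for CDC42, -0.66 ± 0.19 for PTGR2 and -0.88 ± 0.17 for PM20D2. That signal did not overlap between the groups, and the SE for CXCL14 was 0.36 without it. The part of that signal in the calls was not otherwise tested.

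After CXCL14 the largest increases did not pass the threshold in the fit without the block, other than that of CDC42. The first was that of RNF5, an E3 ubiquitin ligase of the endoplasmic reticulum, which read 8.75, 7.54 and 8.01 in High against 6.18 to 6.94 in Low (1.55 ± 0.25, adjusted p = 0.0551, and 0.0240 with the block). COL3A1, a fibrillar collagen of loose connective tissue, read 10.78, 9.51 and 9.90 in High and 8.78, 7.63, 9.44, 8.09 and 9.20 in Low (1.44 ± 0.39, adjusted p = 0.115). The groups just fail to touch, and within tumor 143B-1253 the High array stood 1.34 above the Low array. The other tested COL3A1 probe sets lay at 0.83 and 0.03. THBS4, a matrix thrombospondin of tendon and stroma, read 9.97, 8.95 and 9.57 against 8.41, 7.61, 8.17, 7.78 and 8.55 (1.39 ± 0.25, adjusted p = 0.0588, and 0.0451 with the block). IGF1, the growth factor, read 8.08, 6.71 and 7.34 against 6.18, 5.66, 6.45, 6.03 and 6.26 (1.26 ± 0.26, adjusted p = 0.0781, and 0.0297 with the block). That IGF1 probe set is of type _x_at, the other one tested lay at 0.82, and the rest did not pass the filter. For RNF5, COL3A1, THBS4 and IGF1 alike, tumor 143B-1253 gave the highest High value and the pool 51&52 the lowest.

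AIF1, a calcium-binding protein of macrophages, read 8.83, 8.03 and 8.58 against 7.60, 7.01, 7.36, 6.87 and 7.34 (1.24 ± 0.20, adjusted p = 0.0527, and 0.0409 with the block). SPI1, the myeloid transcription factor PU.1, read 6.81, 6.43 and 7.10 against 5.46 to 6.01 (1.002 ± 0.18, adjusted p = 0.0551, and 0.0492 with the block). Both genes separated the groups on every array. The 3 AIF1 probe sets that rose, by 1.12 to 1.35, are all of type _x_at. Its remaining probe set lay at 0.07, with both group means under the filter value (4.89 in High and 4.83 in Low). The set of largest increases was completed by the transcription factor NFIX (1.09 ± 0.22) and the secreted protein CCDC80 (1.06 ± 0.23), neither called with or without the block.

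The mean levels of a macrophage list that contains AIF1 and SPI1, and of a fibroblast list, did not overlap between High and Low. The levels of other cell type lists overlapped, but most of their tested members lay above 0 as well (46.4% of all genes). These were 5 of 5 neutrophil, 8 of 9 endothelial, 7 of 9 skeletal muscle and 6 of 8 lymphocyte markers. Osteoclast (5 of 7), erythroid (4 of 6) and adipocyte (5 of 8) markers leaned the same way. Mean levels of these lists were dim, from 4.15 to 6.34, while the 46.4% covers genes of all levels. The median signal of each High array (5.30 to 5.32) lay above that of each Low array (5.26 to 5.29). The part of that shift in these counts was not tested. Of 19 macrophage markers on the array, 10 were tested, 8 of them lay above 0 and the median difference was 0.30. CSF1R (-0.11) and CD53 (-0.07) lay below 0. The mean level of all 19 was 4.82 to 5.08 in High and 4.62 to 4.76 in Low, so the groups did not overlap, yet both lay under the filter value. That mean includes AIF1 and SPI1, which were named for separating the groups. It is no separate support, and whether the remaining markers separate the groups was not tested. Beside AIF1 and SPI1, C1QA (0.46 ± 0.12) and CYBB (0.55 ± 0.19) had the smallest p. The defining markers CD163, MRC1, TYROBP, C1QB, C1QC, LYZ, PTPRC, MSR1 and ADGRE1 were under the filter value on all 8 arrays, with High means of 3.37 to 4.41. The array's probes are human, so host cells can register only by cross-hybridization.

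Of 14 fibroblast and pericyte markers, 12 were tested, 11 lay above 0 and 4 had an unadjusted p under 0.05, all higher (background 7.77%, with 46.4% of all genes above 0). The mean level of all 14 was 6.24 to 6.46 in High and 5.96 to 6.18 in Low, again without overlap. The smallest p belonged to the matrix protein DPT (0.50 ± 0.12), followed by PI16 (0.33 ± 0.10), FAP (0.56 ± 0.19) and the proteoglycan DCN (0.28 ± 0.11), while LUM and MFAP5 were not tested. In RNA of sorted cells, host cells read by cross-hybridization and more of the transcript per tumor cell cannot be told apart. The part of these marker genes in the differences of COL3A1, THBS4, IGF1 and CXCL14 was not tested.

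On the lower side the largest difference was that of ESM1, an endothelial proteoglycan that tumor cells can also make. It read 7.10, 7.18 and 6.13 in High and 7.39, 8.12, 9.64, 7.81 and 8.27 in Low (-1.44 ± 0.42, adjusted p = 0.132). The groups did not overlap, and the Low array of tumor 143B-1253 stood highest. The only ESM1 probe set is of type _x_at. ACSL4, which activates arachidonic acid and sensitises cells to ferroptosis, read 7.67, 7.73 and 6.76 against 8.31, 8.65, 8.98, 8.35 and 8.54. No High array reached a Low array (-1.18 ± 0.22, adjusted p = 0.0610, and 0.0253 with the block), but of 3 tested probe sets only that of highest signal moved this far, the others being at 0.23 and -0.12. WIF1, a secreted inhibitor of Wnt ligands, read 6.22, 6.42 and 5.44 against 6.72, 6.91, 7.19, 6.85 and 7.20 (-0.95 ± 0.20, adjusted p = 0.0797). The pool 54&55 was the lowest High array for ESM1, ACSL4 and WIF1 alike.

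The scaffold protein gene GRIP1 (-0.94 ± 0.16) and TUBE1, which encodes the centriolar epsilon tubulin (-0.83 ± 0.15), were called with the block, with adjusted p of 0.0213 and 0.0253. So were the ethanolamine kinase gene ETNK1 (-0.83 ± 0.19, adjusted p = 0.0409) and the homeobox gene ESX1 (-1.13 ± 0.29, adjusted p = 0.0409). SGMS1, a sphingomyelin synthase (-0.88 ± 0.17), and the noncoding SFTA1P (-0.89 ± 0.16) were not. With the hybridization control signal as a covariate the difference of ESM1 was 0.37 ± 0.39, within 1 SE of 0, and that of ACSL4 was -0.56 ± 0.34.

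Among gene lists, the transcription factors of the immediate early response stood highest. These genes, AP-1 subunits of the FOS and JUN families, EGR and NR4A factors and their feedback regulators, switch on within minutes after growth factors, stress or tissue handling. Of 22 tested, 20 lay above 0 in High, 14 had an unadjusted p under 0.05, all higher (background 7.77%), and 8 did not overlap between the groups (background 5.34%), though none was called. The median difference was 0.35, beside -0.02 over all genes. By tumor the list's median was 0.44 for pool 51&52 less Low 143B-1251 and 143B-1252, 0.27 for tumor 143B-1253 and 0.21 for pool 54&55 less Low 143B-1254 and 143B-1255, and 18 members were higher in all 3 (background 19.8%).

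The list's mean level was 10.50 to 10.65 in High and 10.06 to 10.41 in Low. JUND, the AP-1 subunit of resting cells, read 11.84, 11.83 and 11.94 in High and 11.39, 11.21, 11.44, 11.27 and 11.56 in Low. The groups did not overlap, and the difference was 0.50 ± 0.10 (adjusted p = 0.0748). ZFP36, which destabilises inflammatory transcripts, read 8.97, 8.61 and 8.62 against 7.74, 8.13, 8.43, 8.24 and 7.47 (0.74 ± 0.20, adjusted p = 0.111). The nuclear receptor NR4A2 lay at 0.65 ± 0.17 and the Kruppel-like factor KLF2 at 0.41 ± 0.11, with Low 143B-1252 reaching into the High range for NR4A2. The lowest members were KLF6 (-0.04) and FOSL2 (-0.03), chosen after their values were seen.

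With the hybridization control signal as a covariate the list's median was 0.64 and 15 members had an unadjusted p under 0.05, all higher. In that fit 587 of all 14418 genes were higher at this threshold, and their overall median was -0.001. Leaving out single arrays kept the median between 0.28 and 0.37. In MNNG the median of the same genes was -0.01 with 2 called higher, and no member had a called difference between the lines. Over all 14418 genes the MNNG median was -0.19, with 2248 called higher.

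The promoter table held 17 of the list's 23 genes. The cyclic AMP response element occurred in 2 of the 17, JUND and DUSP1, the AP-1 motif in none, and TATAAA in 4, namely DUSP1, FOS, FOSB and JUNB. One form of the serum response element, present in 0.0313% of all promoters, occurred in 1 of the 17, EGR1. JUND is printed because it had the smallest p of the list, with the element in capitals.
JUND (chr19:18281623-18281872, minus strand): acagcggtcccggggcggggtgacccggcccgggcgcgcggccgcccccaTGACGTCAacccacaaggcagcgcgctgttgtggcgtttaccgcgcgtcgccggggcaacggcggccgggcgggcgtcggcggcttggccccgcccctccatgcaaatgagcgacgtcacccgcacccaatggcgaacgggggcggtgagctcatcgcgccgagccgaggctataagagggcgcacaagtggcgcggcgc

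Most genes of mitosis lay above 0 and most genes of DNA replication below it, and none was called. Of 32 mitotic genes 25 lay above 0, 7 had an unadjusted p under 0.05, all higher (background 7.77%), and the median was 0.15. UBE2C, which directs cyclins to destruction at the anaphase-promoting complex, read 12.11, 11.92 and 12.12 in High and 11.01, 11.49, 11.57, 11.55 and 11.26 in Low. It separated the groups (0.68 ± 0.13, adjusted p = 0.0738). The mitotic kinase AURKA lay at 0.53 ± 0.11 on the probe set that stands for it and at -0.29 where probe sets of types _x_at and _s_at were left out. CDK1, the kinase that drives mitotic entry, lay at 0.58 ± 0.17 and the polo-like kinase PLK1 at 0.34 ± 0.11. The list's median was 0.04 in the pool 51&52, 0.26 in tumor 143B-1253 and 0.19 in the pool 54&55, and the list's mean level overlapped between the groups.

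The 33 replication genes had a median of -0.09 with 8 above 0 and 4 at an unadjusted p under 0.05, all lower (background 9.79%). They were the uracil-DNA glycosylase UNG (-0.38 ± 0.10), the primase partner POLA1 (-0.37 ± 0.12) and the helicase subunits MCM2 (-0.25 ± 0.09) and MCM6 (-0.24 ± 0.09). Over the whole list 4 genes did not overlap between the groups, all lower (background 6.53%). Cell cycle inhibitors and quiescence genes did not lean to one side, with 11 of 22 above 0 and a median of 0.00. At an unadjusted p under 0.05, 5 were higher (background 7.77%) and 3 lower (background 9.79%). Within that list the Notch target HES1 lay at 0.49 ± 0.12 and the antiproliferative TOB1 at 0.41 ± 0.13, whereas the retinoblastoma family genes RB1 and RBL1 lay at -0.39 ± 0.11 and -0.57 ± 0.17.

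**Figure D3:**
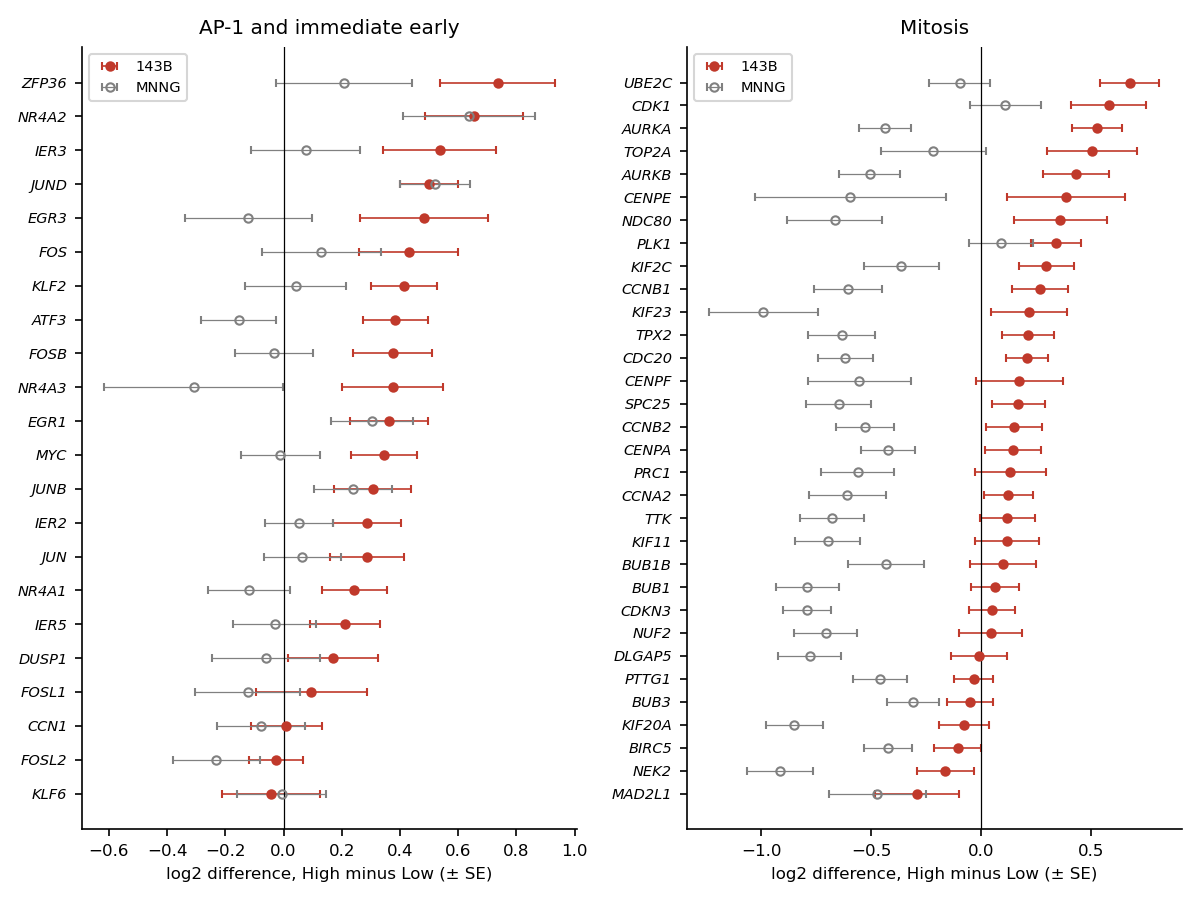
Log2 difference between High and Low (± SE) of each tested immediate early gene and mitotic gene in 143B (red) and MNNG (grey). In 143B 20 of 22 immediate early genes and 25 of 32 mitotic genes lie above 0. In MNNG the medians of the same lists are -0.01 and -0.58, beside -0.19 over all genes.

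Most members of the metabolic lists lay below 0, and none was called. Of 19 genes of cholesterol synthesis and uptake, 3 lay above 0, 4 had an unadjusted p under 0.05, all lower (background 9.79%), and the median was -0.20. The list's mean level was 8.31 to 8.45 in High and 8.48 to 8.69 in Low, without overlap. HMGCS1, which makes the substrate of HMG-CoA reductase, read 8.46, 8.44 and 8.10 against 8.70, 8.95, 8.91, 8.79 and 8.63 (-0.46 ± 0.12, adjusted p = 0.100). The squalene epoxidase SQLE (-0.33 ± 0.09), the sterol carrier STARD4 (-0.46 ± 0.17) and the lanosterol synthase LSS (-0.33 ± 0.14) followed. With the hybridization control signal as a covariate the median of this list was 0.02.

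Of 34 subunits of oxidative phosphorylation, 3 lay above 0 and 20 were lower in all 3 matched tumor differences (background 25.6%), with a median of -0.11. At an unadjusted p under 0.05 there were 4, all lower (background 9.79%). NDUFA5 of complex I had the largest difference of the 4 with the smallest p, at -0.60 ± 0.15, and UQCRC2 of complex III, NDUFB8 of complex I and ATP5F1B of the ATP synthase lay between -0.28 and -0.19. The 29 cytosolic ribosomal protein genes had a median of -0.04 with 2 above 0 and none at an unadjusted p under 0.05. Their mean level was 14.15 to 14.18 in High and 14.19 to 14.25 in Low, a narrow gap with no overlap. High arrays had the smaller mean interquartile range, and its part in these small shifts was not tested.

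**Figure D4:**
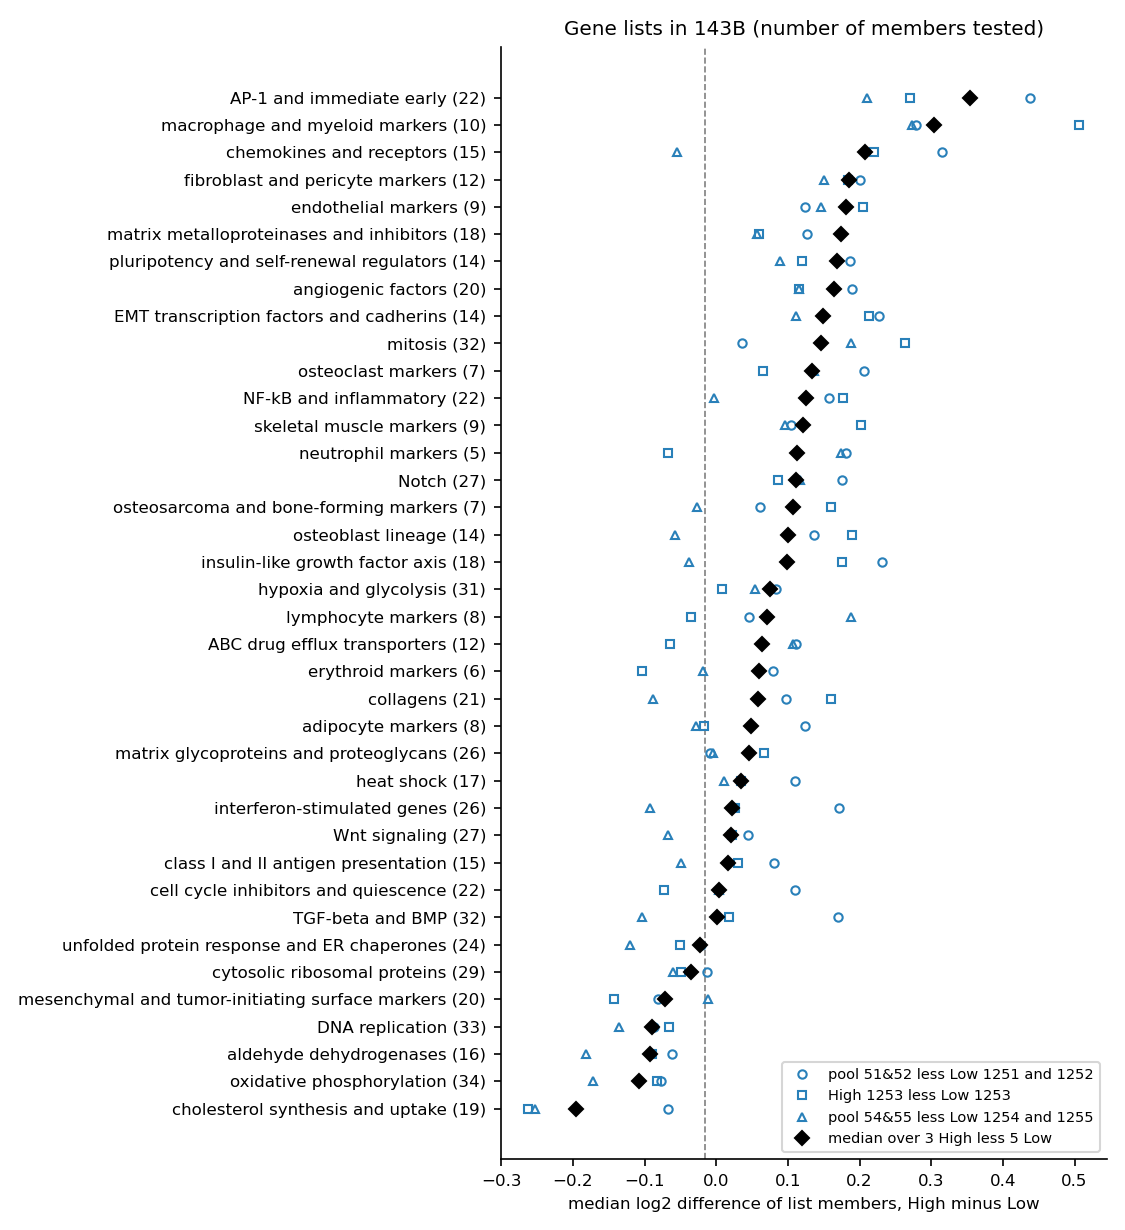
Median log2 difference between High and Low of the tested members of each gene list in 143B (diamonds), with the median in each matched tumor difference (open symbols) and the median of all 14418 genes (dashed line). The immediate early list lies highest at 0.35 and cholesterol synthesis and uptake lowest at -0.20.

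Secreted factors gave several of the larger values outside the called genes. Of 15 chemokines and receptors, 11 lay above 0 and CXCL14 alone was called; the next by p were CCL26 (0.44 ± 0.18) and CCL4 (0.33 ± 0.15). In the insulin-like growth factor list, 6 of 18 genes were higher (background 7.77%) and 3 lower (background 9.79%) at an unadjusted p under 0.05. Its stanniocalcins, which block the protease that frees IGF from its binding proteins, were among the former. STC1 read 9.99, 9.96 and 9.67 in High and 8.38, 9.35, 9.03, 9.04 and 8.76 in Low (0.96 ± 0.18, adjusted p = 0.0693). STC2 lay at 0.63 ± 0.15 and also separated the groups, while the receptor substrate IRS1 lay at -0.38 ± 0.12.

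Of 26 glycoproteins and proteoglycans 14 lay above 0, with THBS3 at 0.75 ± 0.16 beside THBS4, and the basement membrane chain LAMB1 at -0.27 ± 0.09 and fibulin FBLN1 at 0.56 ± 0.19. Among 21 collagens 14 lay above 0, beside 46.4% of all genes, and COL27A1 lay at 0.44 ± 0.14, COL1A2 at 0.91 ± 0.40 and the basement membrane chain COL4A5 at -0.35 ± 0.09. The collagen list's mean level ran from 7.61 to 8.04 in High and from 7.31 to 7.87 in Low, and tumor 143B-1253 was the highest in each group. Of 18 matrix metalloproteinases and inhibitors 13 lay above 0, led by MMP13 (0.44 ± 0.15), MMP10 (0.68 ± 0.23), MMP19 (0.28 ± 0.11) and MMP24 (0.23 ± 0.09).

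Of 20 angiogenic factors 16 lay above 0, with a median of 0.16 and list levels of 8.11 to 8.16 in High and 7.90 to 8.03 in Low. PDGFA, the platelet-derived growth factor A chain, had the smallest p (0.48 ± 0.11), followed by ANGPTL4 (0.71 ± 0.22), the VEGF co-receptor NRP2 (0.25 ± 0.09) and VEGFA itself (0.36 ± 0.15). Hypoxia and glycolysis genes, which contain several of the same factors, had 20 of 31 above 0 and a median of 0.08, with EGLN3 at 0.38 ± 0.15 and EGLN1, another prolyl hydroxylase that marks HIF for destruction, at -0.25 ± 0.10. In the NF-kB list 16 of 22 lay above 0, with IER3 (0.54 ± 0.19), ICAM1 (0.33 ± 0.13), LIF (0.52 ± 0.21) and CSF3 (0.26 ± 0.11) first by p.

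Heat shock genes had a median of 0.03, and 5 of 17 had an unadjusted p under 0.05, all higher (background 7.77%). HSPA1L, an HSP70 relative, lay at 0.71 ± 0.18, the small heat shock proteins CRYAB and HSPB8 at 0.81 ± 0.22 and 0.55 ± 0.17, and the stress-inducible HSPA6 at 0.65 ± 0.27. None of these passed the adjusted threshold in 143B.

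Lists of genes used to describe tumor-initiating cells did not share a direction. Among 20 surface markers 9 lay above 0, and EPCAM, an epithelial adhesion molecule, had the smallest p. It read 8.75, 8.91 and 8.60 in High and 9.26, 9.13, 9.22, 9.26 and 9.11 in Low (-0.44 ± 0.10, adjusted p = 0.0803). The stem cell factor receptor KIT lay at -0.60 ± 0.19, the fucosyltransferase FUT4, which makes the CD15 epitope, at -0.27 ± 0.11 and the integrin ITGB1 at -0.20 ± 0.09. Of 16 aldehyde dehydrogenases 10 lay at or below 0. At an unadjusted p under 0.05, 6 of them were lower (background 9.79%) and 2 higher (background 7.77%).

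ALDH1L2, the mitochondrial enzyme that oxidises formyl-tetrahydrofolate, read 6.89, 6.36 and 6.57 in High and 7.57, 6.82, 7.80, 7.55 and 7.63 in Low. Low 143B-1252 fell among the High arrays (-0.87 ± 0.20, adjusted p = 0.0854, and 0.0409 with the block). ALDH1A2, which makes retinoic acid, lay on the other side at 0.48 ± 0.11, and ALDH18A1 and ALDH5A1 at -0.40 ± 0.10 and -0.55 ± 0.16. Among 14 pluripotency and self-renewal regulators 11 lay above 0 with a median of 0.17, and the 4 with the smallest p were MYC (0.34 ± 0.11), KLF4 (0.36 ± 0.12), PRDM14 (0.26 ± 0.10) and STAT3 (0.23 ± 0.10). At an unadjusted p under 0.05 there were 4 of the 14, all higher (background 7.77%). Between the groups 5 did not overlap, all higher (background 5.34%), and none was called. MYC also belongs to the immediate early list.

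Developmental signaling lists were mixed. In the Notch list 19 of 27 genes lay above 0, with the glycosyltransferase MFNG (0.45 ± 0.10), the targets HES1 and HEYL (0.35 ± 0.10) and the ligand DLL1 (0.49 ± 0.18) first by p. The list's level was 7.74 to 7.76 in High and 7.56 to 7.69 in Low. In the Wnt list 14 of 27 lay above 0, and next to WIF1 stood the inhibitor SFRP2 at 0.73 ± 0.20, the ligand WNT10B at 0.40 ± 0.13 and the receptor LGR5 at 0.28 ± 0.10.

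TGF-beta and BMP genes split evenly, with 16 of 32 above 0. FST, the activin antagonist, lay at 0.72 ± 0.16 and the latency protein LTBP1 at 0.35 ± 0.11. The signal transducer SMAD5 lay at -0.45 ± 0.13 and the receptor TGFBR1 at -0.32 ± 0.10. Of 14 osteoblast lineage genes 11 lay above 0, with the homeobox gene DLX6 at -0.41 ± 0.13 and the bone morphogenetic protein BMP2 at 0.69 ± 0.24. TGFBR1 and DLX6 depended on the probe set, at 0.0071 and 0.045 without types _x_at and _s_at.

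The 9 called genes were then set beside MNNG, in a fit over the 16 bone tumor arrays of both lines. All 9 were called with the same sign in MNNG, where 6407 genes passed the threshold (44.4%), and none had a called difference between the lines. CXCL14 differed by 2.57 ± 0.37 in MNNG, with a line difference of 0.08 ± 0.53 (adjusted p = 0.932). CDC42 differed by 2.14 ± 0.25 in MNNG, with a line difference of -1.09 ± 0.36 (adjusted p = 0.201). Across all genes the differences in 143B and MNNG correlated with r = 0.610 over genes, which are not independent replicates. Of the 2532 genes at an unadjusted p under 0.05 in 143B, 2318 (91.5%) had the same sign in MNNG, beside 73.4% of all genes. Array measures shifted the same way in both lines. In MNNG the hybridization controls read 11.58 to 13.04 in High and 10.96 to 11.10 in Low. The interquartile range of MNNG arrays was 2.76 to 3.18 in High and 3.29 to 3.40 in Low. The part of these measures in the shared signs was not tested.

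CELF2, an RNA-binding regulator of splicing, was the 1 gene whose difference between the lines was called (0.00694% of 14418, with 2506 at an unadjusted p under 0.05). In 143B it read 10.19, 9.90 and 10.34 in High and 9.86, 9.44, 9.20, 9.52 and 9.35 in Low. The groups separated by little (0.67 ± 0.15, adjusted p = 0.0803), whereas in MNNG the difference was 3.83 ± 0.29. The line difference was -3.16 ± 0.42 (adjusted p = 0.0115), and it was not called without High 143B-1253 or without the pool 51&52, when limma called no gene (1977 and 1741 at an unadjusted p under 0.05). Of the 4 CELF2 probe sets tested, 3 lay between -0.14 and -0.03 in 143B.

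Several 143B differences had another sign in MNNG without a called line difference. WIF1 lay at 0.42 ± 0.19 in MNNG (line difference -1.36 ± 0.27, adjusted p = 0.158), SFTA1P at 0.44 ± 0.17 (-1.33 ± 0.24, adjusted p = 0.0869) and AURKA at -0.44 ± 0.12 (0.96 ± 0.17, adjusted p = 0.0869). The mitosis list as a whole had a median of 0.15 in 143B and -0.58 in MNNG, where 23 of 32 members were called lower. Over all 14418 genes the MNNG median was -0.19, and 4159 were called lower. No member had a called line difference, and the median line difference over all genes, 0.15, became -0.01 after a second quantile normalization. Without the array MNNG-1235 High the line difference was called for 227 genes.

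**Figure D5:**
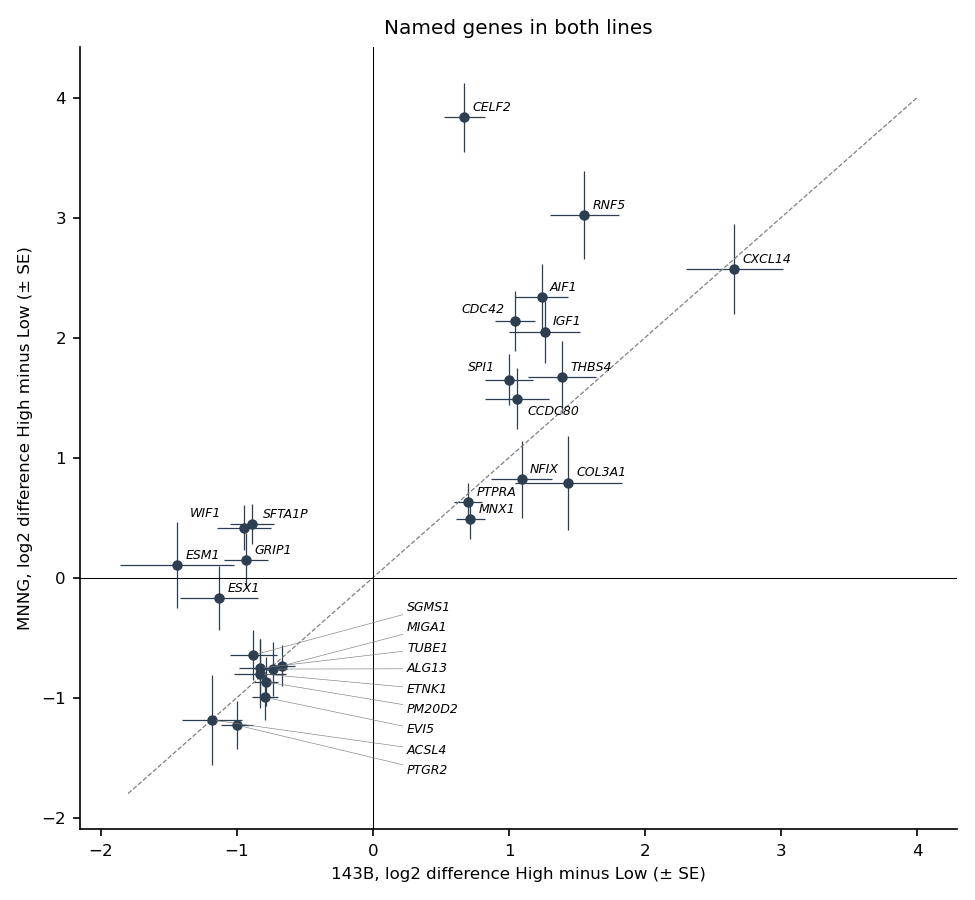
Log2 difference between High and Low in 143B (horizontal, fit over 8 arrays) and in MNNG (vertical, fit over 16 arrays) of the called genes, the largest differences and CELF2, with bars of ±1 SE and equality dashed. CELF2 lies at 0.67 in 143B and 3.83 in MNNG, and WIF1 at -0.95 and 0.42.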

How the data were processed

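Total RNA was labelled as biotinylated cRNA with a 3' expression kit, per the labels' protocols. Per the submitters' processing notes the arrays were processed with RMA, and the deposited values are on its log2 scale. RMA subtracts background, forces the arrays to a common distribution and combines the probes of a set, so a shift shared by most transcripts would not be seen. Its version was not given in the sources used here, nor which arrays entered it together, nor a build.

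Of 54675 probe sets, 41097 had 1 gene in the platform annotation, 1801 several and 11777 none, and only the first kind was named. Of 19775 genes, 19735 were in the RefSeq table and 0 changed symbol. Each gene took its probe set of highest mean over 18 arrays. The 14418 genes reaching 5.36, the table's median, on at least 3 arrays were tested. A gene may pass through the arrays where it is high, so counts within a list cover tested members only.

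Differences were fitted with limma 3.58.1 in R 4.3.3 (lmFit and eBayes), with Benjamini-Hochberg adjustment over all genes tested and a threshold of 0.05. High and Low were compared over the 8 143B arrays, without those of the other line or of lung. The difference between lines was a contrast over 16 arrays. For array measures a two-sided exact permutation test was used (scipy 1.17.1). The fit was tested on simulated data. Alternatives covered the filter, the arrays fitted, the tumor block, weights, scaling, probe sets, covariates and each array left out.

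Same-numbered arrays come from the same tumor, so tumor numbers pair the groups by design. The main fit left this pairing out, and the tumor block was an alternative. Deviations from group means correlated across genes with r of 0.542 in tumor 143B-1253, -0.192 and 0.529 between pool 51&52 and Low 143B-1251 and 143B-1252, and 0.243 and 0.063 between pool 54&55 and Low 143B-1254 and 143B-1255.

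The arrays, gene lists and named genes were chosen with earlier results of these data known. Named are the called genes, the 10 largest increases and decreases among non-overlapping genes with an unadjusted p under 0.05 whose higher group reached the filter value, up to 4 members of smallest p per list described, defining cell type markers, and 7 genes from those earlier results (CXCL14, AIF1, IGF1, CELF2, WIF1, COL3A1 and THBS4). Lists carry counts and medians and no test. The number of arrays limits the precision.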

Additional observations from a re-analysis of the deposited data

Results flagged for a closer look

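Among the 5 Low arrays, 7 of 112 named genes had a single array set apart from the other 4, by a gap of more than 0.71 of the group's range (Dixon's critical value, which chance passes for about 1 gene in 20). PTGR2 read 6.02 in Low 143B-1253 against 5.64 to 5.69 on the others, and EVI5 read 8.99 in Low 143B-1255 against 9.12 to 9.18. Low 143B-1251 stood apart for DLX6 (5.67), ALDH5A1 (6.83) and LTBP1 (7.12), in each case below the others. FUT4 read 8.22 in Low 143B-1255, above the others, and ALDH1L2 read 6.82 in Low 143B-1252, below them.

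CELF2 was set apart by the difference between the lines, -3.16 on the log2 scale for 143B less MNNG, and its probe sets disagreed in 143B.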

How the results depend on the processing

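The count of 9 called genes in 143B became 32 with no filter, 1 when 18 or 16 arrays were fitted, 63 for the tumor or pair of tumors as a replicate block, 39 with array weights, 16 after a second quantile normalization and 61 after median centring. It was 1 for means over probe sets, 4 without probe sets of types _x_at and _s_at, 1 when GAPDH 3' less 5' signal was a covariate and 0 when the hybridization control signal was (limma, 1188 genes at an unadjusted p under 0.05). With all probe sets tested one by one, chosen after seeing the data, it was 0 (limma, 4491 probe sets at an unadjusted p under 0.05). Leaving out single arrays gave 0 to 35 calls, with 1711 to 2593 genes at an unadjusted p under 0.05. With all or with 16 arrays in the fit CXCL14 was the gene that remained, and PTGR2 for means over probe sets and for the GAPDH covariate. The cause of these changes was not tested.

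The count of 1 for the difference between lines became 5 with the tumor block, and 0 to 227 when single arrays were left out. The block lost none of the 9 calls in 143B.

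Of 2192 values of 112 named genes under 20 alternatives, 8 changed sign, in 7 genes. Without probe sets of types _x_at and _s_at these were PTPRA (-0.055), CELF2 (-0.033), AURKA (-0.29), DLX6 (0.045), CDH11 (-0.30) and TGFBR1 (0.0071), where another probe set stands for the gene. With the hybridization control signal they were ESM1 (0.37 ± 0.39) and DLX6 (0.025 ± 0.19), both within 1 SE of 0. Of the list medians recomputed under these alternatives, 677 values moved by less than the spread between tumors and 103 by more.

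Signals under 5.36 give a direction and an uncertain size, since no detection call was used here.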

Other observations

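With the block of tumors or pairs of tumors, 63 genes were called, and those given here were chosen after their values were seen. The medium-chain acyl-CoA dehydrogenase gene ACADM was lower in High by the block fit (-0.77 ± 0.09, adjusted p = 0.0240). The peroxisomal enzyme gene EHHADH lay at -0.77 ± 0.13 (adjusted p = 0.0409), the acyl-CoA synthetase gene ACSL1 at -0.68 ± 0.10 (adjusted p = 0.0380) and the succinate-CoA ligase subunit gene SUCLG2 at -0.80 ± 0.13 (adjusted p = 0.0409). None of the 4 passed the threshold without the block.

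Among the genes that the block fit called higher were SRRM2, a splicing coactivator (0.72 ± 0.11, adjusted p = 0.0409), and the thyroid hormone receptor gene THRA (0.59 ± 0.09, adjusted p = 0.0409). SPOCK1, a matrix proteoglycan, lay at 0.71 ± 0.12 in that fit (adjusted p = 0.0496). In the limma fit without the block its groups overlapped (0.84 ± 0.29, adjusted p = 0.174). In the limma fit over both lines SPOCK1 lay at 0.01 ± 0.45 in MNNG. Its line difference of 0.83 ± 0.65 was not called (adjusted p = 0.467).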
